A study of Mus musculus with 20 samples.

Results

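The basement membrane collagens of the mouse comprise the 6 chains of collagen IV (Col4a1 to Col4a6) and the multiplexins Col15a1 and Col18a1. These 8 genes were taken by name out of 51826 genes counted by bulk RNA-seq. All 8 had at least 5 counts in at least 5 libraries and were among the 20407 genes tested. The cells were primary renal myofibroblasts, which grew out of minced kidney pieces of C57BL/6J mice and were used at the second passage. WT and WWP2-/- littermates both came from heterozygous breeding, and WWP2-/- cells lack the full-length and N-terminal protein isoforms of the E3 ubiquitin ligase WWP2. Cells of each genotype were left untreated or treated with human TGFβ1, the growth factor used to activate myofibroblasts, which gave 4 groups of 5 libraries: WT, WT + TGFβ1, WWP2-/- and WWP2-/- + TGFβ1. Neither the age and sex of the mice nor the number of animals behind a culture is given in the labels, so the P values measure the spread between these libraries, which may be partly technical.

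Collagen IV is the network-forming collagen of basement membranes. Its chains assemble in the cell into trimers of fixed composition, α1α1α2, α3α4α5 and α5α5α6, which are secreted and joined end to end into a sheet. The α1α1α2 network is found in nearly all basement membranes, whereas the α3α4α5 network is the main collagen of the mature glomerular basement membrane, where podocytes make it, and mutations of those chains cause Alport syndrome. Collagens XV and XVIII are proteoglycan collagens at the outer face of basement membranes, and a fragment of collagen XVIII is released as endostatin. The collagen IV genes lie in head-to-head pairs that are read in opposite directions from a common or neighbouring promoter.

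In the GRCm38 annotation, Col4a1 lay on chromosome 8 from 11198423 to 11312826 on the minus strand. Its partner Col4a2 lay from 11312805 to 11449287 on the plus strand, so that the first 22 bases of both genes were the same bases. Col4a4 (chromosome 1, 82448423 to 82586849, minus strand) and Col4a3 (82586921 to 82722059, plus strand) were separated by 71 bases. The X-linked pair was farther apart, with 1308 bases between the start of Col4a6 (X, 141165403 to 141474076, minus strand) and that of Col4a5 (141475385 to 141689234, plus strand). Col15a1 lay on chromosome 4 from 47208161 to 47313167 on the plus strand and Col18a1 on chromosome 10 from 77052178 to 77166548 on the minus strand, each without a collagen neighbour.

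Whether the distance between the starts of a pair relates to how its chains vary was not tested. The sequences at the starts are shown as a description only. They were read 5′ to 3′ from the RefSeq promoter table for GRCm38.p6, which matched 7 of the 8 genes in 8 windows of 300 bases (Col18a1 has 2), and capitals mark a match to one of the motifs searched below.
Col4a1 and Col4a2, shared first bases, chr8:11312805-11312826, plus strand: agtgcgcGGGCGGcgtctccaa
Col4a4 and Col4a3, bases between the starts, chr1:82586850-82586920, plus strand: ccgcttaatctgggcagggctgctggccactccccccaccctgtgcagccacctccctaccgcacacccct
Col4a5, bases before its start, chrX:141475285-141475384, plus strand: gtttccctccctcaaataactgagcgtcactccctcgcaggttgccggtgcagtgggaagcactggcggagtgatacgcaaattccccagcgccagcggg
Col4a6, bases before its start, chrX:141474077-141474176, minus strand: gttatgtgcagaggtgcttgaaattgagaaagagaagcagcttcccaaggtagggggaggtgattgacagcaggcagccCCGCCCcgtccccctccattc

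All of these stretches were rich in G and C, with 72.7% G and C in the shared Col4a1 and Col4a2 bases, 69.0% between Col4a4 and Col4a3, 61.0% before Col4a5 and 57.0% before Col4a6. On both strands of the full windows, the GC box GGGCGG was found in 5 of the 8 member windows (Col4a1, Col4a2, Col4a5, Col4a6 and 1 of Col18a1) and in 35.7% of the 32851 promoters in the table. The letters CCCTCCCC, known as the CTC box from work on the Col4a1 and Col4a2 promoter, were present in the windows of Col4a1, Col4a2 and Col4a5 and in 10.8% of all promoters. CCAAT was present in 4 member windows against 37.4% of all promoters, and CAGACA, the core of the Smad-binding CAGA box, in 1 window of Col18a1 against 21.0%. TATAAA was in no member window and in 13.6% of all promoters. The windows of Col4a1 and Col4a2 overlap, so their matches are not independent, and a match is a description of letters and not a bound site.

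Library totals ranged from 47520759 to 73063697 counts. Wwp2 transcript was lower in every WWP2-/- library (15.5 to 24.0 counts per 1000000 counts, CPM) than in every WT library (46.7 to 61.6 CPM), so no library went against its genotype label, and part of the transcript remained in the WWP2-/- libraries. WWP2-/- replicate 3 and WWP2-/- + TGFβ1 replicate 1 stood apart from the other 18 libraries. They were each other's nearest library despite different treatment labels, and Acta2, the smooth muscle actin that marks myofibroblasts, was at 39.7 and 49.0 CPM in them against 945 to 3337 CPM elsewhere. In 8 of the 20 libraries, the most similar library carried another group's label. Libraries also differed in sex-linked transcripts. With more than 1 CPM as the limit, 9 libraries had transcripts of 4 Y-linked genes (Ddx3y, Eif2s3y, Kdm5d and Uty) without Xist, the RNA of the inactive X, 6 had Xist without the Y-linked genes, and 5 had both. The groups were unequal in this respect: WT + TGFβ1 held 3 libraries with Xist only and 1 with Y-linked transcripts only, whereas WWP2-/- + TGFβ1 held 1 and 4.

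The chains of the ubiquitous network were the most abundant members. Col4a1, the doubled chain of the α1α1α2 trimer, was at 2561, 2277, 1935, 3050 and 2671 CPM in WT replicates 1 to 5 and at 2581, 2541, 2820, 2174 and 2474 CPM in WT + TGFβ1. In WWP2-/- it was at 2179, 2564, 653, 2689 and 3356 CPM, and in WWP2-/- + TGFβ1 at 650, 2606, 3226, 2524 and 2738 CPM. The groups overlapped throughout, and the low values of 653 and 650 CPM belonged to the pair of libraries that stood apart. Col4a2, the remaining chain of that trimer, was at 2023, 1785, 1646, 1867 and 2126 CPM in WT and at 2067, 2000, 2062, 1821 and 2088 CPM in WT + TGFβ1. It was at 1597, 1774, 384, 1979 and 2437 CPM in WWP2-/- and at 383, 1691, 1930, 1657 and 1812 CPM in WWP2-/- + TGFβ1. Outside the libraries that stood apart, both chains stayed in a narrow band, with 1935 to 3356 CPM of Col4a1 and 1597 to 2437 CPM of Col4a2.

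The chains of the glomerular network varied far more. Col4a3 was at 97.5, 75.4, 19.8, 601 and 52.0 CPM in WT and at 52.4, 6.53, 340, 10.7 and 6.38 CPM in WT + TGFβ1. It was at 121, 239, 0.226, 143 and 179 CPM in WWP2-/- and at 0.425, 283, 461, 499 and 530 CPM in WWP2-/- + TGFβ1. Each WT group therefore had 1 high library and 4 lower ones, whereas WWP2-/- + TGFβ1 had 4 high libraries and 1 near 0. The values of 0.226 CPM in WWP2-/- and 0.425 CPM in WWP2-/- + TGFβ1 rested on 11 and 26 counts. Col4a4 was high and low in the same libraries as Col4a3, apart from swaps between libraries next to each other in rank. Col4a4 was at 78.3, 68.8, 20.9, 417 and 48.1 CPM in WT and 42.7, 10, 218, 13.5 and 11.5 CPM in WT + TGFβ1. It was at 90.2, 193, 1.21, 108 and 131 CPM in WWP2-/- and 0.785, 163, 268, 368 and 384 CPM in WWP2-/- + TGFβ1. A transcript annotated on the opposite strand, C430014B12Rik, overlaps 5.65% of the exon bases of Col4a3, and it was at 0.253 to 1.17 CPM. Whether the counting used strand is not given in the sources used here.

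The X-linked chains differed from each other in abundance. Col4a5, which takes part in both the α3α4α5 and the α5α5α6 trimers, was at 449, 361, 297, 385 and 465 CPM in WT and at 548, 447, 522, 332 and 469 CPM in WT + TGFβ1. In WWP2-/- it was at 282, 286, 64.6, 364 and 446 CPM, and in WWP2-/- + TGFβ1 at 62.2, 254, 277, 247 and 335 CPM. With TGFβ1 the ranges met at their edge, since the lowest WT library (332 CPM) lay just below the highest WWP2-/- library (335 CPM). Col4a6, the chain of the smooth muscle and epithelial α5α5α6 network, was at 13, 11.8, 6.94, 16.6 and 11.6 CPM in WT and 16.9, 8.83, 15.9, 6.16 and 11.1 CPM in WT + TGFβ1. It was at 14.1, 14.7, 1.34, 14.8 and 19.2 CPM in WWP2-/- and 1.28, 10.7, 7.80, 10.6 and 13.1 CPM in WWP2-/- + TGFβ1, and all groups overlapped.

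Of the multiplexins, Col18a1 was well expressed and Col15a1 scarce. Col18a1 was at 187, 198, 40.5, 451 and 106 CPM in WT and 120, 78.8, 228, 31.8 and 62.7 CPM in WT + TGFβ1. It was at 204, 447, 65.5, 209 and 219 CPM in WWP2-/- and 77.8, 223, 190, 375 and 451 CPM in WWP2-/- + TGFβ1. Its lowest values were therefore in WT libraries, and the libraries that stood apart were not below the WT range. Col15a1 was at 1.99 to 5.48 CPM in WT, 1.87 to 6.39 CPM in WT + TGFβ1, 0.247 to 6.57 CPM in WWP2-/- and 0.474 to 14.2 CPM in WWP2-/- + TGFβ1. Replicates 2 and 3 of WWP2-/- + TGFβ1, at 14.2 and 12.1 CPM, were the only libraries above 7 CPM.

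**Figure D1:**
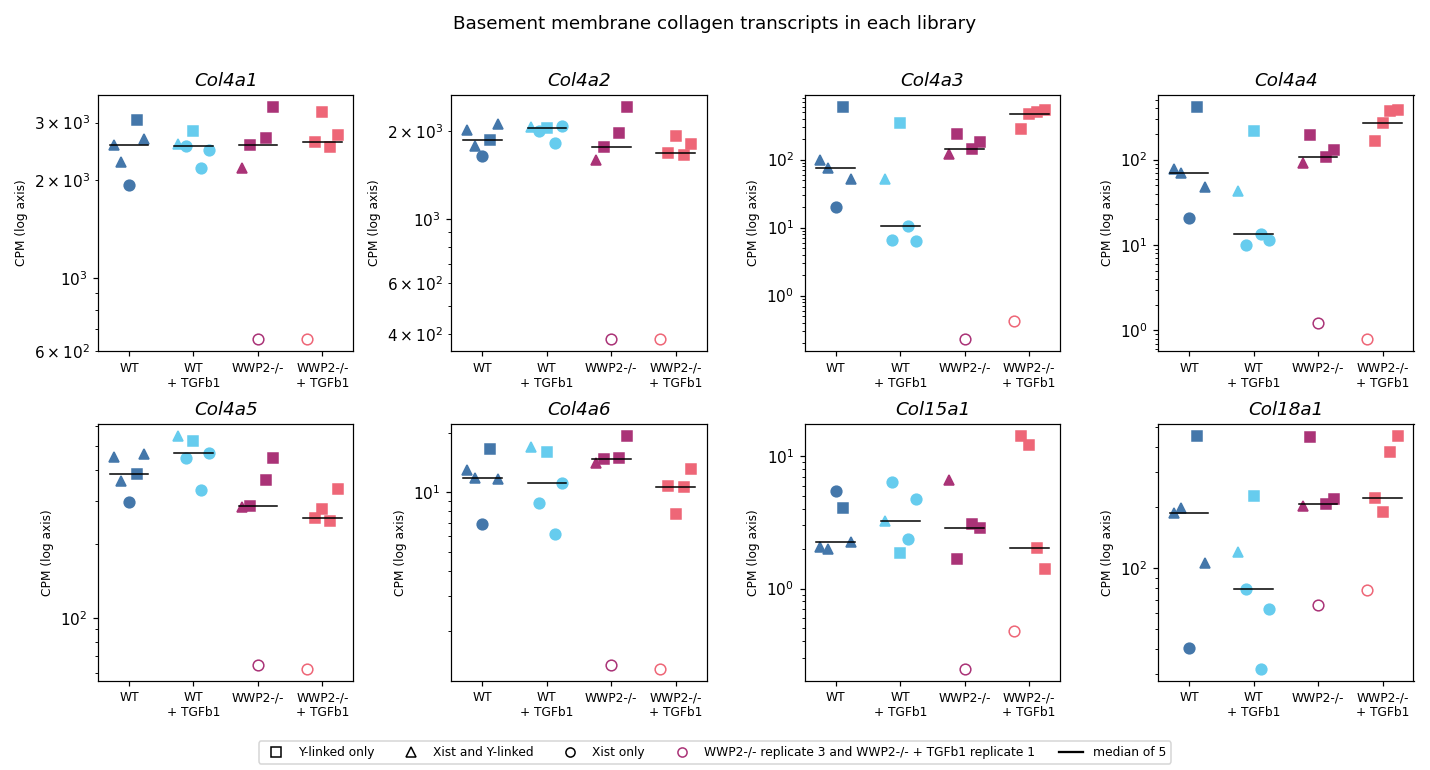
Transcript level (CPM, log axis) of each of the 8 collagens in the 20 libraries by group, with the median of 5 as a line and the symbol giving the sex-linked transcripts found (square, Y-linked only; triangle, both; circle, Xist only). The open circles are WWP2-/- replicate 3 and WWP2-/- + TGFβ1 replicate 1, which lie lowest for every collagen IV chain and for Col15a1, and Col4a3 and Col4a4 spread over the widest range.

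On a scale that allows genes to be compared (CPM per kb of exon), the order of the means was Col4a1, Col4a2, Col4a5, Col18a1, Col4a3, Col4a4, Col4a6 and Col15a1 in WT, in WT + TGFβ1 and in WWP2-/-. In WT the means ± SD (n = 5) ran from 335 ± 56.2 CPM per kb for Col4a1 and 285 ± 28.7 for Col4a2 through 58.3 ± 10.2 for Col4a5 to 1.5 ± 0.433 for Col4a6 and 0.499 ± 0.244 for Col15a1. The ranges of neighbours in that order overlapped, except that Col4a2 lay above Col4a5 and Col4a6 above Col15a1 without overlap. In WWP2-/- + TGFβ1 the order of Col18a1 (37.5 ± 21.3 CPM per kb), Col4a3 (35.6 ± 22.1) and Col4a5 (35.0 ± 15.3) was not resolved, since their ranges overlapped.

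The composition of collagen IV per length was dominated by α1 and α2. Col4a1 and Col4a2 together made up 81.3% to 93.8% of collagen IV CPM per kb over the 20 libraries, Col4a5 and Col4a6 5.05% to 11.1%, and Col4a3 and Col4a4 0.0755% to 11.9%. The share of the α3 and α4 chains was 0.712% to 11.7% (median 2.18%) in WT and 0.225% to 6.64% (median 0.379%) in WT + TGFβ1. It was 0.0881% to 6.05% (median 3.32%) in WWP2-/- and 0.0755% to 11.9% (median 8.53%) in WWP2-/- + TGFβ1. Libraries of every group thus reached from below 1% to above 6%, but single libraries set several of these ends. In each WWP2-/- group only the library that stood apart was below 1%. The rest were at 3.3% to 6.05% in WWP2-/- and at 6.37% to 11.9% in WWP2-/- + TGFβ1. Only replicate 4 (11.7%) exceeded 2.34% in WT, and only replicate 3 (6.64%) exceeded 1.24% in WT + TGFβ1. The share of Col4a5 and Col4a6 was 8.12% to 11.1% in WT + TGFβ1 and 5.05% to 6.59% in WWP2-/- + TGFβ1, without overlap, against 6.99% to 9.32% in WT and 6.30% to 7.57% in WWP2-/-, and no test was made of these shares. These shares sum to a whole, so a larger share of one pair lowers the others.

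**Figure D2:**
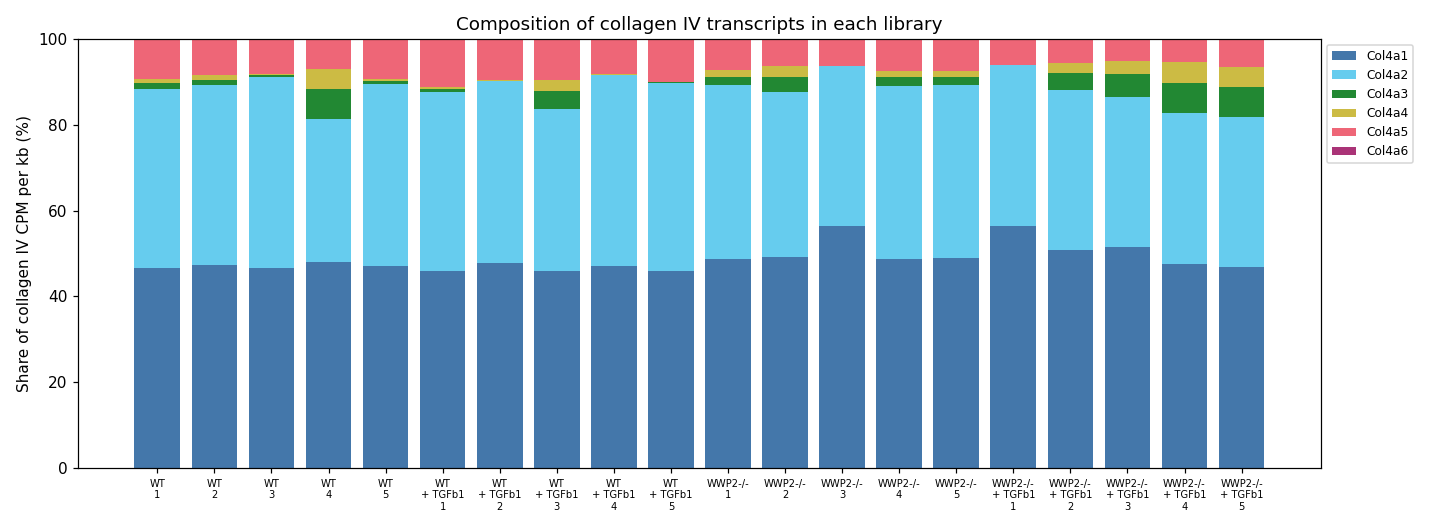
Share of each of the 6 collagen IV chains in the sum of their CPM per kb of exon (%, stacked from 0 to 100) in each of the 20 libraries. Col4a1 and Col4a2 fill 81.3% to 93.8% of every bar, and the Col4a3 and Col4a4 segments range from 0.0755% to 11.9%.

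The head-to-head pairs were then compared by how far their chains varied together over libraries. The 2 libraries that stood apart were low in every collagen IV chain, so correlations of log2(CPM + 1) were computed over the other 18. Col4a3 and Col4a4 moved together almost exactly, with a Pearson r of 0.995 and a Spearman rho of 0.994 (permutation P = 1e-05 for each, the smallest possible, and 3e-05 adjusted over the 3 pairs). Without the 2 libraries farthest from the median, r was again 0.995. Col4a1 and Col4a2 had an r of 0.625 (permutation P = 0.00547, adjusted 0.00821) and a rho of 0.492 (P = 0.0388, adjusted 0.0582), and r was 0.373 without WT replicate 3 and WWP2-/- replicate 5, so that the pooled relation rested partly on those libraries. After removal of the group means, r over the 18 libraries was 0.84 for this pair and 0.99 for Col4a3 and Col4a4. Col4a5 and Col4a6 had an r of 0.416 (permutation P = 0.0852) and a rho of 0.453 (P = 0.0622), and neither passed, whereas r was 0.74 after removal of the group means. The libraries differ in group and in sex-linked transcripts, so the same was asked within the 9 libraries that had Y-linked transcripts only. These were alike in sex-linked transcripts but not in group (1 WT, 1 WT + TGFβ1, 3 WWP2-/- and 4 WWP2-/- + TGFβ1). The permutations ran across the groups, so differences between groups remain in these values. There r was 0.973 for Col4a3 and Col4a4 (exact permutation P = 2.76e-05, adjusted 8.28e-05), 0.768 for Col4a1 and Col4a2 (exact permutation P = 0.0116, adjusted 0.0165) and 0.763 for Col4a5 and Col4a6 (exact permutation P = 0.0165, adjusted 0.0165), with rho of 0.983, 0.800 and 0.883 (adjusted exact permutation P of 0.000149, 0.0138 and 0.00462). Without the 2 libraries farthest from the median these r values were 0.940, 0.590 and 0.808. Whether any of these correlations differ between pairs or between sets of libraries was not tested. The class with Xist only had 4 libraries outside the pair that stood apart and the class with both had 5, too few for a correlation. The pairs also differ in how far they vary, since Col4a3 spanned 6.38 to 601 CPM in these 18 libraries and Col4a1 1935 to 3356 CPM.

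**Figure D3:**
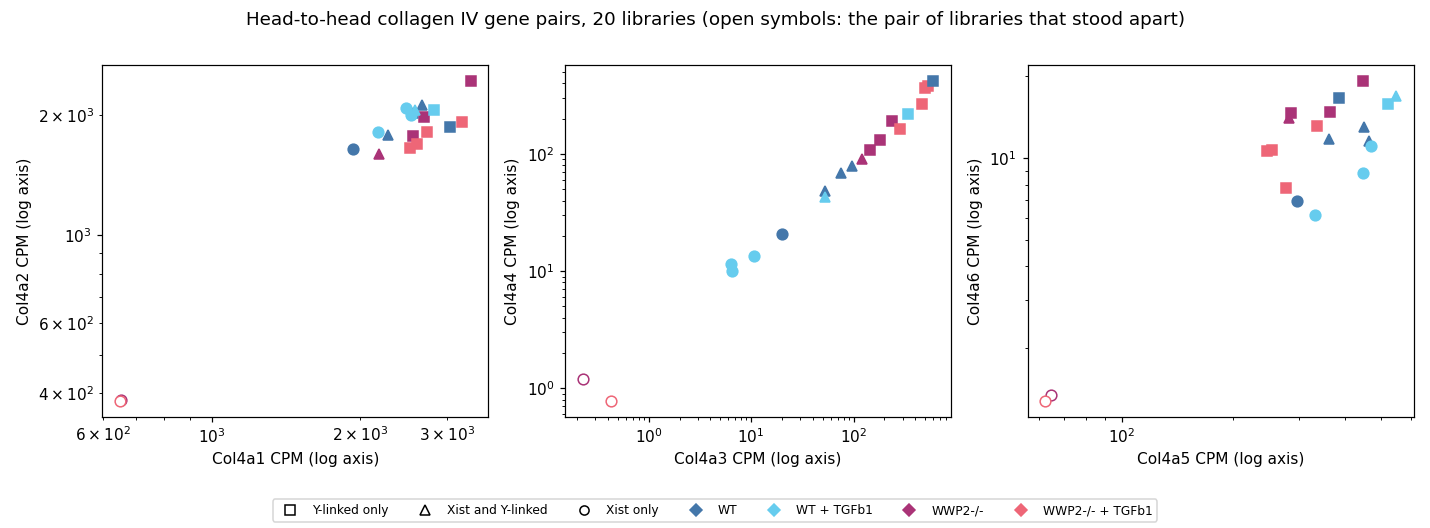
CPM of the partner genes against each other on log axes in 20 libraries, coloured by group, with symbols for the sex-linked transcripts found and open circles for the 2 libraries that stood apart. Col4a3 and Col4a4 lie along a line over the whole range (r of 0.995 in 18 libraries), and Col4a5 and Col4a6 scatter most (r of 0.416).

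Counts of the chains of a pair were also compared as a ratio, from which library size cancels. The ratio of Col4a1 to Col4a2 counts was 1.27, 1.28, 1.18, 1.63 and 1.26 in WT replicates 1 to 5 and 1.25, 1.27, 1.37, 1.19 and 1.18 in WT + TGFβ1. It was 1.36, 1.45, 1.70, 1.36 and 1.38 in WWP2-/- and 1.70, 1.54, 1.67, 1.52 and 1.51 in WWP2-/- + TGFβ1. With TGFβ1, all 5 WWP2-/- libraries lay above all 5 WT libraries, a 1.27-fold difference (mean log2 ratio 0.67 ± 0.0801 against 0.32 ± 0.0834, SD, n = 5). The exact two-sided permutation test gave P = 0.00794, the smallest P that 5 against 5 allows, and 0.0952 after adjustment over the 12 comparisons of 3 pairs, so the difference did not pass the adjusted threshold. Untreated cells differed by 0.14 on the log2 scale in the same direction (exact permutation P = 0.23), where WT replicate 4 was among the highest libraries. How many other pairs of genes have ratios that separate the treated groups was not counted. For single genes, the CPM of the treated groups did not overlap in 5.53% of all genes.

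Within libraries of like sex-linked transcripts, the treated ratios with Y-linked transcripts only were 1.51 to 1.67 in 4 WWP2-/- libraries and 1.37 in the 1 WT library. Those with Xist only were 1.70 in the 1 WWP2-/- library and 1.18, 1.19 and 1.27 in the 3 WT libraries. Among untreated libraries with Y-linked transcripts only the order was the opposite, with 1.36, 1.38 and 1.45 in WWP2-/- and 1.63 in WT. Untreated libraries with Xist only were at 1.70 in WWP2-/- and 1.18 in WT, and those with both at 1.36 in WWP2-/- and 1.26 to 1.28 in WT. Each WWP2-/- library with Xist only, at 1.70, is one of the pair that stood apart. Every class had at most 1 library on one side, so no test was made within classes.

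The ratio of Col4a3 to Col4a4 ran from 0.193 to 1.73. It was 0.947 to 1.44 in WT, 0.555 to 1.56 in WT + TGFβ1, 0.193 to 1.36 in WWP2-/- and 0.546 to 1.73 in WWP2-/- + TGFβ1, and no comparison of groups had an exact permutation P below 0.238. The ratio was lowest where both genes were low. It was below 1 in all 6 libraries with Xist only and at least 1.08 in the other 14.

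Col4a5 exceeded Col4a6 by 19.5 to 53.8 times in counts, the largest imbalance of the 3 pairs. The ratio was 23.3 to 42.7 in WT, 32.3 to 53.8 in WT + TGFβ1, 19.5 to 48 in WWP2-/- and 23.3 to 48.5 in WWP2-/- + TGFβ1. The mean log2 ratio was lower in WWP2-/- than in WT by 0.40 untreated and by 0.47 with TGFβ1, with exact permutation P of 0.19 and 0.111, and an adjusted P of 0.408 for both. Without the libraries that stood apart, which had the highest ratio of their group, the differences were -0.62 (exact permutation P = 0.0317) and -0.64 (P = 0.0476), neither adjusted over the comparisons.

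**Figure D4:**
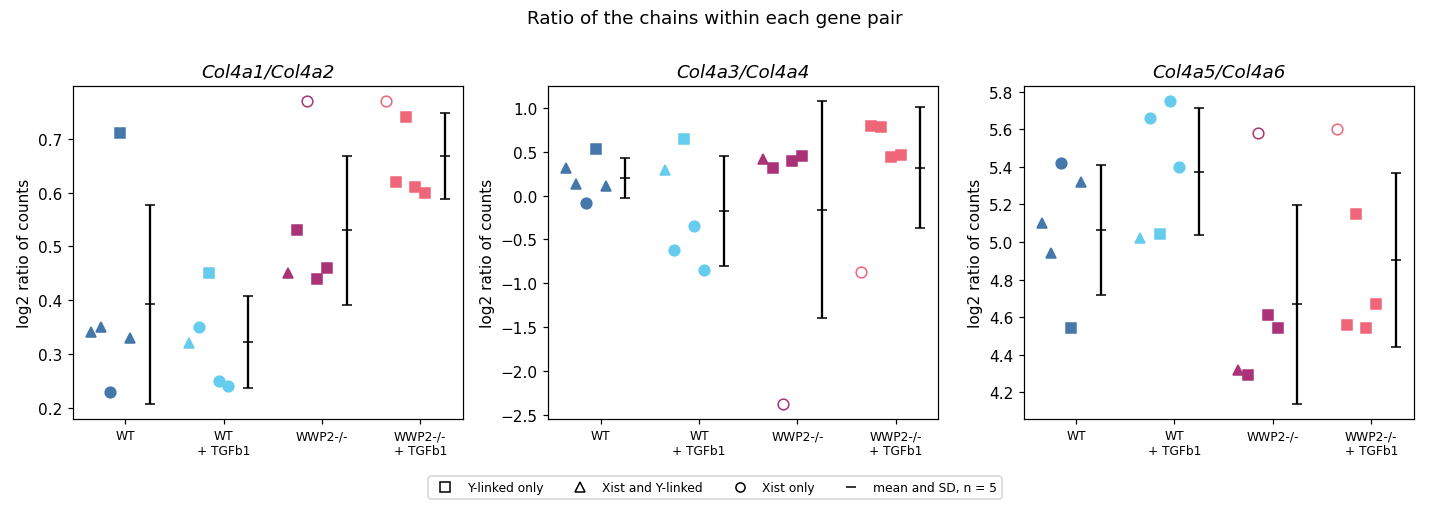
log2 ratio of the counts of the 2 chains of each pair in each library by group, with the mean and SD of 5 libraries beside the points and the symbols of the plot of levels. For Col4a1/Col4a2 all 5 WWP2-/- + TGFβ1 libraries lie above all 5 WT + TGFβ1 libraries, and for the other pairs all groups overlap.

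The comparison of genotypes asked whether loss of WWP2 changes these collagens. With TGFβ1, edgeR called none of the 8 members at an adjusted P below 0.05, against 6.07% of all 20407 genes (2.1% higher and 3.96% lower). At an unadjusted P below 0.05, 2 of the 8 members passed, Col4a5 and Col18a1, beside 5035 of all 20407 genes. DESeq2 called 1 member, Col4a5, beside 2672 of all genes. Col4a5 was lower in WWP2-/- cells by a log2 fold change of -1.11 ± 0.393 (SE; 0.463-fold; adjusted P = 0.0921 in edgeR). Its adjusted P was 0.0487 by the Wald test of DESeq2, 0.0336 with Xist as a covariate (log2 fold change -1.83) and 0.0103 without the libraries that stood apart (-0.88), and it lay between 0.0944 and 0.137 under the other alternatives and between 0.083 and 0.164 when any 1 library was left out. The direction was the same in all of these. Col18a1 was higher by 1.23 ± 0.575 on the log2 scale (adjusted P = 0.194), and by 0.24 with Xist as a covariate (adjusted P = 0.787).

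The remaining members had wide intervals. Col4a3 differed by a log2 fold change of 2.09 ± 1.40 (95% interval -0.84 to 5.02; adjusted P = 0.373) and Col4a4 by 1.97 ± 1.18 (-0.51 to 4.45; adjusted P = 0.316), and with Xist as a covariate these became -0.17 and -0.33. Col4a1 differed by -0.22 (-0.97 to 0.53), Col4a2 by -0.56 (-1.36 to 0.24), Col4a6 by -0.57 (-1.67 to 0.53) and Col15a1 by 0.58 (-1.07 to 2.24). Their adjusted P values in edgeR were 0.753, 0.385, 0.536 and 0.699. The median log2 fold change of the 8 members was 0.18, beside 0.05 over all genes tested. No member had groups without overlap, against 5.53% of all genes.

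In untreated cells, edgeR called 0 of 8 members, against 0.725% of all genes (0.103% higher and 0.622% lower). None had an unadjusted P below 0.05, beside 3044 of all 20407 genes, and DESeq2 called 0, beside 743 of all genes. The log2 fold changes of WWP2-/- against WT ran from -0.50 (Col4a5, 95% interval -1.32 to 0.32, adjusted P = 0.561) to 0.19 (Col18a1, -1.0 to 1.38, adjusted P = 0.896). Col4a1 was at -0.19 (-0.94 to 0.57) and Col4a2 at -0.27 (-1.07 to 0.52). For Col4a3 the interval reached from -3.12 to 2.51. No member had groups without overlap, against 2.82% of all genes.

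TGFβ1 is a known inducer of extracellular matrix genes, and the treatment was compared within each genotype. In WT cells edgeR called 0 of 8 members, and 0% of all genes were called. None of the members had an unadjusted P below 0.05, beside 1397 of all 20407 genes, and DESeq2 called 0, beside 27 of all genes. Col4a1 differed by a log2 fold change of 0.12 (95% interval -0.63 to 0.87) and Col4a2 by 0.19 (-0.61 to 0.98). The largest values were those of Col4a4 (-1.04, -3.46 to 1.38), Col4a3 (-0.98, -3.81 to 1.86) and Col18a1 (-0.81, -2.01 to 0.38), with adjusted P of 0.935, 0.951 and 0.880. No member separated the WT groups without overlap, against 1.19% of all genes.

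In WWP2-/- cells treatment again gave 0 calls among the members by edgeR, and 0% of all genes were called. None had an unadjusted P below 0.05, beside 713 of all 20407 genes, and DESeq2 called 0, beside 49 of all genes. The log2 fold changes ran from -0.55 for Col4a6 (95% interval -1.64 to 0.55) to 1.42 for Col4a3 (-1.44 to 4.29), and no member separated the WWP2-/- groups without overlap, against 0.421% of all genes. Col4a3 and Col4a4 pointed down in WT and up in WWP2-/- cells, but the interaction was 2.40 ± 1.92 for Col4a3 (adjusted P = 0.904 in edgeR) and 2.25 ± 1.63 for Col4a4 (adjusted P = 0.875). In the interaction 0 of 8 members were called by edgeR, with 0% of all genes called. No member had an unadjusted P below 0.05, beside 1424 of 20407 genes, and DESeq2 called 0, beside 10 of all genes. Each genotype comparison shares a group of libraries with each treatment comparison, and all came from one fit, so their values are not independent.

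**Figure D5:**
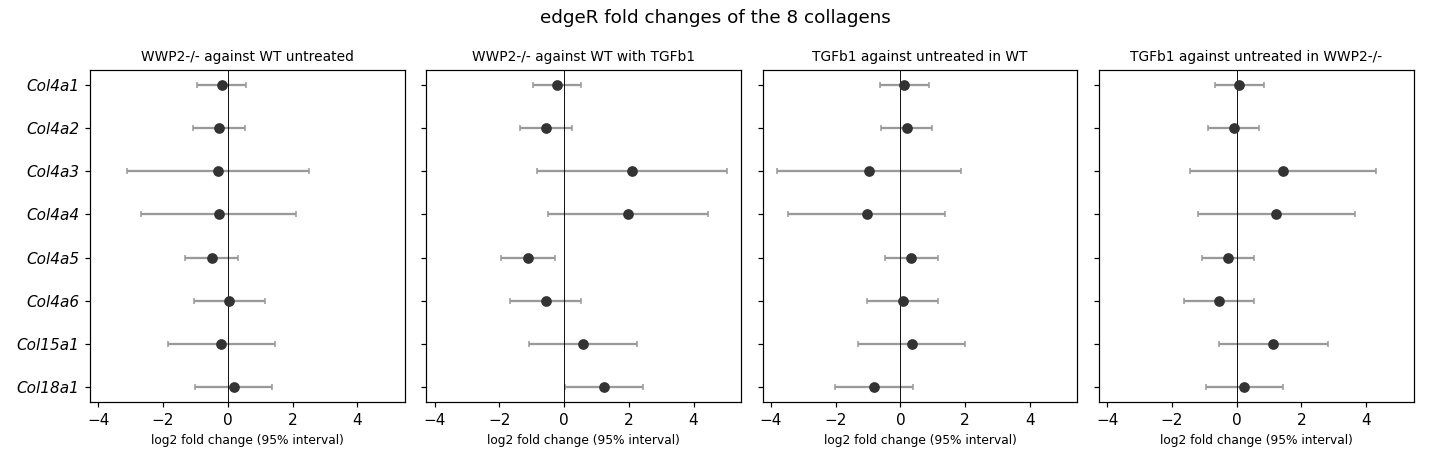
edgeR log2 fold change with its 95% interval (x axis) of the 8 collagens in the 4 comparisons, one panel each. The intervals of Col4a3 and Col4a4 are the widest, and those of Col4a5 (-1.94 to -0.29) and Col18a1 (0.02 to 2.44) with TGFβ1 are the only ones that leave out 0.

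The levels of Col4a3, Col4a4 and Col18a1 separated the libraries by their sex-linked transcripts. Col4a3 was at 0.226 to 19.8 CPM in the 6 libraries with Xist only, at 52.0 to 121 CPM in the 5 with both and at 143 to 601 CPM in the 9 with Y-linked transcripts only, without overlap. Col4a4 was at 0.785 to 20.9, 42.7 to 90.2 and 108 to 417 CPM in the same classes. Col18a1 was at 31.8 to 78.8, 106 to 204 and 190 to 451 CPM, where the upper 2 classes overlapped. The same classes overlapped for Col4a5 (62.2 to 469, 282 to 548 and 247 to 522 CPM) and Col4a2 (383 to 2088, 1597 to 2126 and 1657 to 2437 CPM). Col4a6 was at 1.28 to 11.1 CPM with Xist only and at 11.6 to 16.9 CPM with both, but at 7.80 to 19.2 CPM with Y-linked transcripts only. These classes were formed from the data after the levels were known, and no test was made of them. The share of all genes tested that separates the same classes was not counted. The separation can therefore not be called particular to these collagens.

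Markers of some other cell types differed between the same classes. The summed level of 10 macrophage markers was 57.5 to 294 CPM with Xist only, 140 to 1249 CPM with both and 290 to 4593 CPM with Y-linked transcripts only, and 8 of the 10 were at 1 CPM or more in every library. The 10 tubular markers summed to 11.7 to 58.6, 110 to 342 and 83.3 to 798 CPM, with 3 of them below 1 CPM and 2 at no more than 3 counts in every library. The 10 endothelial markers summed to 20.8 to 75.3, 84.0 to 122 and 44.6 to 272 CPM, so that the last range held that of the libraries with both, and 1 of the 10 was at 1 CPM or more in every library. The 10 fibroblast markers ran the other way, with medians of 20500 CPM with Xist only, 16052 CPM with both and 8017 CPM with Y-linked transcripts only and ranges of 4382 to 30497, 8002 to 23745 and 5079 to 11984 CPM. The 10 podocyte markers did not follow the classes, at 249 to 838, 626 to 878 and 503 to 937 CPM. Of these, 7 were at 1 CPM or more in every library, among them Kirrel, Synpo and Wt1 with means of 324, 194 and 51.5 CPM, and Nphs1, which encodes nephrin, was at most 0.168 CPM. The part of these cell types, of sex and of the culture in the levels of Col4a3, Col4a4 and Col18a1 was not tested. In bulk RNA, fewer cells of a type and less RNA per cell cannot be told apart.

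By treatment and genotype, the macrophage sum was 149 to 4593 CPM (median 927) in WT, 57.5 to 491 CPM (median 140) in WT + TGFβ1, 86.3 to 2164 CPM (median 516) in WWP2-/- and 79.1 to 3999 CPM (median 1070) in WWP2-/- + TGFβ1. Its medians had the same order as those of Col4a3 except for the untreated pair. The 8 smooth muscle and myofibroblast markers summed to 64.6 and 76.6 CPM in the libraries that stood apart and to 1105 CPM or more in each WT library.

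The genes whose log2(CPM + 1) was most like that of each member over the 20 libraries were taken from 13521 genes with a mean of at least 1 CPM. The values are descriptions over libraries that include the pair that stood apart. After removal of the group means, the r of the named genes was 0.949 to 0.997 for the collagen IV chains and 0.970 to 0.980 for Col18a1. That removal keeps the pair of libraries that stood apart, so high values may partly reflect them. Over the other 18 libraries r was computed only for the head-to-head pairs. There it was 0.625 for Col4a1 and Col4a2, 0.995 for Col4a3 and Col4a4 and 0.416 for Col4a5 and Col4a6. Col4a3 and Col4a4 named each other first (r of 0.997), followed by Lrrn1 (0.975) and Klhdc8a (0.973) for Col4a3 and by Lrrn1 (0.972) for Col4a4. Col4a1 was nearest to Col4a2 (0.973), then Tns1 (0.971), which encodes the focal adhesion protein tensin, and Nrep (0.970). Col4a2 was nearest to Tgfb2 (0.988), a TGFβ ligand, Sema3d (0.988) and Hacd4 (0.983). Col4a5 was nearest to Col4a2 (0.961), Nhs (0.957) and Gm43682 (0.956), and not to Col4a6 (0.89). Col4a6 was nearest to Npnt (0.980), which encodes the basement membrane protein nephronectin, P3h2 (0.975), a prolyl 3-hydroxylase of collagen, and Lama5 (0.959), the laminin α5 chain. Col15a1 had no close companion, with Sh3glb1 (0.806), Ssr1 (0.799) and Piezo2 (0.795) as the highest. Col18a1 was nearest to Unc13b (0.976), Stxbp2 (0.972) and Exoc6 (0.972).

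Genes that build, modify or bind basement membranes were set beside the members as a list of 59, all of them tested. With TGFβ1, edgeR called 2 higher and 9 lower in WWP2-/- cells, 11 of 59 against 6.07% of all genes, with a median log2 fold change of -0.23 beside 0.05 over all genes. By role, the calls were 3 of 11 laminin chains, 3 of 9 linkers and proteoglycans, 4 of 18 collagen processing and crosslinking genes, 0 of 12 receptors and 1 of 9 proteases and inhibitors. Among the receptors 5 had an unadjusted P below 0.05 and DESeq2 called 1. Over all 20407 genes in this comparison, 5035 had an unadjusted P below 0.05 and DESeq2 called 2672. The largest changes were those of Mmp9, a gelatinase that cleaves collagen IV, of the linkers Nid2 and Fbln1, and of P4ha3, a subunit of prolyl 4-hydroxylase. Mmp9 rose by 5.18 ± 1.15 on the log2 scale (adjusted P = 0.0158), at 1.99 to 46.9 CPM in WWP2-/- + TGFβ1 and 0.180 to 0.947 CPM in WT + TGFβ1. Nid2 fell by 3.76 (adjusted P = 0.0103), at 2.31 to 14.5 against 8.10 to 143 CPM, and the groups overlapped. Fbln1 fell by 3.29 (adjusted P = 0.0354) and overlapped as well, whereas P4ha3 fell by 2.22 (adjusted P = 0.0149) without overlap, at 3.96 to 10.9 against 32.1 to 43.8 CPM. The chaperone Serpinh1, which binds procollagen in the endoplasmic reticulum, fell by 0.98 (adjusted P = 0.0200), and Lamb1 rose by 0.55 (adjusted P = 0.0390), both named after their values were seen. Cell type markers differed in the same comparison as well. All 10 macrophage markers had a positive log2 fold change (median 2.61), with 0 called by edgeR, 10 at an unadjusted P below 0.05 and 10 called higher by DESeq2. Of the 10 fibroblast markers, 9 had a negative one (median -2.12), with 2 called lower by edgeR and 5 by DESeq2. The part of these cell types in the changes of the partners and of the fibrillar collagens was not tested, and the fibroblast list shares Col1a1, Col1a2 and Col3a1 with the fibrillar list.

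In untreated cells 0 of the 59 partners were called by edgeR, 19 had an unadjusted P below 0.05 and DESeq2 called 6. Over all 20407 genes these counts were 148, 3044 and 743. Treatment changed 0 partners in either genotype by edgeR. At an unadjusted P below 0.05 there were 4 in WT and 1 in WWP2-/-, beside 1397 and 713 of all genes. DESeq2 called 0 partners in either genotype, beside 27 and 49 of all genes. The 11 fibrillar collagens, which form the interstitial fibres, gave 1 higher and 4 lower calls in WWP2-/- cells with TGFβ1, 5 of 11 against 6.07% of all genes, with a median log2 fold change of -1.42. Untreated, 3 of 11 were called lower against 0.725% of all genes, with a median of -1.06, and this count was 0 with the replicate block and with only the groups compared, and 0 to 4 with 1 library left out. Col1a1 fell by 1.98 and Col1a2 by 2.63 with TGFβ1 (adjusted P = 0.0492 and 0.0142), and Col5a3 rose by 2.46 (adjusted P = 0.0182). Whether the basement membrane collagens and the fibrillar collagens differed in their response was not tested.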

How the data were processed

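The deposited table holds whole-number counts of read pairs per gene in 20 poly-A RNA-seq libraries. Per the study's methods, the authors aligned reads to GRCm38 (mm10) with STAR and counted pairs over exons with featureCounts, and the versions and the strand setting are not given in the sources used here. Library totals were 47520759 to 73063697 counts (median 55863325.5), so that 3 counts, taken as the limit of detection, equal 0.0631 CPM where the total was lowest. This limit covers counting error only.

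Groups were taken from the labels. A gene was tested if 5 or more libraries had 5 or more counts for it (20407 of 51826, with 99.98% of counts). One model of 4 groups was fitted to all 20 libraries with the quasi-likelihood test of edgeR 4.0.16 (TMM scaling, R 4.3.3), and P values were adjusted over all genes tested by the Benjamini-Hochberg method with a threshold of 0.05. The Wald test of DESeq2 1.42.0 was an alternative, as were its size factors, no filter, at least 10 counts in every library, only the groups compared, a block for the replicate number, a covariate for Xist and each library left out. A fit without the 2 libraries that stood apart was added after seeing the data. The edgeR step was tested on simulated data.

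CPM was the count over the library total, and CPM per kb was divided by the exon length in GENCODE M21 on GRCm38, which named 51633 genes. Pair ratios were log2 of counts plus 0.5 and were compared by exact two-sided permutation over 252 arrangements, adjusted over 12 tests (Python 3.11.15, scipy 1.17.1, numpy 2.4.6). Correlations used 100000 permutations, or all arrangements for 9 libraries. Promoter windows came from the RefSeq table for GRCm38.p6.

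The genes named were all members, Wwp2, at most 4 partners per comparison with the largest change among those called with a mean of at least 1 CPM, and the 3 genes most like each member, of which 1 for Col4a4 is not reported here. The members and lists were chosen with earlier results of these data known.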

Additional observations from a re-analysis of the deposited data

Results flagged for a closer look

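In 12 of 44 sets of 5 values (8 collagens and 3 log2 pair ratios in 4 groups), 1 library lay far from the other 4 by Dixon's test. For values with a normal distribution, chance does this in about 1 of 20 sets. The collagen levels were taken as CPM without a log and some were strongly skewed, so that rate may not hold here. The flags are therefore a description only. The sets are not independent, since the same libraries recur. WT replicate 4 was high in Col4a3 (601 CPM, others 19.8 to 97.5), in Col4a4 (417 CPM, others 20.9 to 78.3) and in the log2 ratio of Col4a1 to Col4a2 (0.71). WT + TGFβ1 replicate 3 was high in Col4a3 (340 CPM, others 6.38 to 52.4) and Col4a4 (218 CPM, others 10 to 42.7). In each WT group, this was the only library that had Y-linked transcripts without Xist.

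WWP2-/- replicate 3 was low in Col4a6 (1.34 CPM, others 14.1 to 19.2). Its log2 ratios were high for Col4a1/Col4a2 (0.77) and Col4a5/Col4a6 (5.58) and low for Col4a3/Col4a4 (-2.37). WWP2-/- + TGFβ1 replicate 1 was low in Col4a1 (650.0 CPM, others 2524 to 3226), in Col4a2 (383 CPM, others 1657 to 1930) and in the log2 ratio of Col4a3 to Col4a4 (-0.87). These are the libraries that stood apart from the other 18.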

How the results depend on the processing

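No member passed the edgeR threshold in any comparison when 1 library was left out. With TGFβ1, 1 member, Col4a5, passed by DESeq2, with Xist as a covariate and without the 2 libraries that stood apart (1 each). Of 480 leave-one-out fold changes of members, 449 kept their direction and side of the threshold and 31 changed sign. Of 312 under other alternatives, 295 kept both, 3 passed the threshold and 14 changed sign. Depth limited the members little, with no library below 47520759 counts, apart from Col4a3 (11 and 26 counts) and Col15a1 (12 and 29) in the libraries that stood apart.

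Without the libraries that stood apart, the untreated genotype difference became 0.07 for Col15a1, 0.03 for Col4a1, 0.01 for Col4a3 and 0.04 for Col4a4, and the treated one 0.01 for Col4a1. With Xist as a covariate, Col18a1 became -0.47 (genotype, untreated) and -0.02 (TGFβ1 in WWP2-/-), Col4a1 -0.07 (TGFβ1 in WWP2-/-), Col4a6 -0.77 (genotype, untreated), Col4a3 -0.17 and Col4a4 -0.33 (genotype, treated). With the replicate block, the untreated genotype difference became 0.23 for Col4a3, 0.14 for Col4a4 and -0.04 for Col4a6. The cause was not tested for any of these.

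With 1 library left out, the untreated genotype difference ranged from -0.74 to 0.12 for Col15a1, -0.18 to 0.66 for Col18a1, -0.41 to 0.03 for Col4a1, -0.59 to 1.04 for Col4a3, -0.59 to 0.83 for Col4a4 and -0.19 to 0.32 for Col4a6, where WT replicate 4 gave the highest values of Col18a1, Col4a3 and Col4a4. The response to TGFβ1 in WT ranged from -2.94 (without WT + TGFβ1 replicate 3) to 0.38 (without WT replicate 4) for Col4a3, from -2.49 to 0.09 for Col4a4 with the same libraries, and from -0.09 to 0.21 for Col4a6. In WWP2-/- it ranged from -0.01 to 0.58 for Col18a1, -0.15 to 0.32 for Col4a1 and -0.34 to 0.15 for Col4a2, and the interaction of Col4a1 from -0.27 to 0.20. For Col4a1 and Col4a2 these extremes came without WWP2-/- replicate 3 and WWP2-/- + TGFβ1 replicate 1.

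The treated difference in the Col4a1/Col4a2 ratio was 0.32 to 0.37 with 1 library left out (exact permutation P = 0.0159 in all 10), and 0.34 with the replicate block (exact permutation P = 0.0625, the smallest that sign flips of 5 pairs allow). Without the libraries that stood apart, the Col4a1/Col4a2 response in WWP2-/- was 0.17 (exact permutation P = 0.0286), the untreated Col4a3/Col4a4 difference 0.19 (0.159), and the Col4a5/Col4a6 difference -0.64 treated (0.0476) and -0.62 untreated (0.0317). With 1 library left out, Col4a1/Col4a2 ranged from 0.08 to 0.22 (genotype, untreated; exact permutation P = 0.0159 without WT replicate 4), -0.11 to 0.01 (TGFβ1 in WT) and 0.11 to 0.20 (TGFβ1 in WWP2-/-; 0.0159 without WWP2-/- replicate 3). Col4a3/Col4a4 ranged from -0.51 to 0.19 (genotype, untreated) and -0.07 to 0.78 (TGFβ1 in WWP2-/-; 0.0317 without WWP2-/- + TGFβ1 replicate 1). Col4a5/Col4a6 ranged from -0.64 to -0.37 treated and -0.62 to -0.30 untreated.

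Of the partners, 11 were called with TGFβ1, against 20 by DESeq2, 7 with only the groups compared, 7 with the block, 3 with Xist as a covariate and 21 without the libraries that stood apart. With 1 library left out the count was 5 to 19, highest without WT + TGFβ1 replicate 3. Untreated, 0 were called, against 6 by DESeq2, 1 without the libraries that stood apart and 0 to 7 with 1 library left out (7 without WT replicate 4). Of the fibrillar collagens, 5 were called with TGFβ1, against 3 with only the groups compared, 2 with Xist and 2 to 6 with 1 library left out. Untreated, 3 were called, against 0 with only the groups compared, 0 with the block, 1 with Xist and 0 to 4 with 1 library left out. Over all genes, 1238 were called with TGFβ1, against 2672 by DESeq2, 790 with no filter, 569 with only the groups compared, 670 with the block, 630 with Xist, 3480 without the libraries that stood apart and 453 to 2730 with 1 left out. Untreated, 148 were called, against 743, 1, 1, 82 and 271 by DESeq2, with only the groups compared, the block, Xist and without those libraries, and 1 to 743 with 1 left out. For treatment 0 were called in either genotype, against 27 in WT and 49 in WWP2-/- by DESeq2. With Xist 1 was called in WT, and with 1 left out 0 to 63 were called in WWP2-/-.

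Replicate numbers were not taken to pair the libraries, since in no comparison did all 5 same-numbered pairs correlate above 0.1. Their correlations ran from -0.54 to 0.13 in the treated genotype comparison (1 of 5 above 0.1), 0.02 to 0.49 in the untreated one (4 of 5, with the own number best in 3), -0.58 to 0.54 in the response of WT (2 of 5) and -0.26 to 0.39 in that of WWP2-/- (3 of 5). Apart from the values given here, the block changed no call of a member.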
